A study of Mus musculus with 2 samples.

Results

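The Ms4a genes examined here are 6 members of the membrane-spanning 4-domains subfamily A, taken by symbol from the 31053 features of each count matrix: Ms4a7, Ms4a6b, Ms4a6c, Ms4a6d, Ms4a4a and Ms4a4c. The table lists 19 genes with an Ms4a symbol in all. The question was whether the whole gene cluster or Ms4a7 alone stands at another level in microglia of an IRF8 knockout, and in which cells. The members were chosen from results of these same data, so their differences between the libraries are given as descriptions. Ms4a proteins are small membrane proteins that cross the membrane several times and act mostly as partners of other receptors. Their genes lie side by side in mammals, and members mark different blood lineages: MS4A1 is the CD20 antigen of B cells, MS4A2 is the beta chain of the mast cell IgE receptor, and several others are made by monocytes and macrophages. In the brain, Ms4a7 is used as a marker of macrophages at its borders, and human MS4A4A and MS4A6A have been linked to soluble TREM2 and to Alzheimer's disease risk.

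Single microglia, which are macrophages living in the brain tissue, were profiled from female C57BL/6 mice aged 3 months. Per the labels' protocols, cells of 3 mice of each genotype were pooled after isolation without enzymes and sorted by flow cytometry, with no treatment. One library is titled WT and the other IRF8KO, after the transcription factor IRF8, which macrophages need for their normal development. The genotype entry of the second reads WT and the allele is not named, so it is called the library labelled IRF8KO, and with 1 library a group no difference has a replicate check or a test of genotype. The 3 populations compared were drawn from cells holding 1000 or more UMIs (molecular tags, each counting 1 captured transcript) and 500 or more genes, of whose UMIs no more than 10% are mitochondrial. The WT cells number 3304, with 18543061 UMIs and a median of 3204.5 per cell. The main cells of the library labelled IRF8KO number 5007, hold under 2% of their UMIs in the neutrophil genes Camp, Ngp, S100a8, S100a9, Lcn2 and Ltf, and sum to 18980263 UMIs with a median of 2933. The neutrophil-gene cells are the other 98 cells of that library, with 842948 UMIs and a median of 7057.5. The 2% limit falls in a gap: the highest main cell held 0.232% and the lowest neutrophil-gene cell 2.36%, and no WT cell exceeded 0.0400%. The 2 libraries share 5 cell barcodes.

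Levels are given as CPM, the UMIs of a gene for each 1000000 UMIs of a population, with exact 95% intervals that cover counting error only. Irf8 itself had 14725 UMIs (794 CPM) in WT cells and 12698 (669 CPM) in the main cells, a log2 ratio of -0.25, and transcript counts give no measure of its protein. Each of the 11 microglia markers was detected in WT cells, at 32189.7 CPM summed, against 15860.1 CPM in the main cells, where 6 were lower by 2-fold or more and none higher. Sall1, a microglia identity factor, stood at 511 CPM in WT cells and 2.85 CPM in the main cells. Of the 11 border macrophage markers, 7 reached 10 CPM in either population and all 7 were higher in the main cells, with the summed level at 290.2 CPM in WT cells and at 3334 CPM in the main ones; Cd163, Lyve1, F13a1 and Clec12a had no UMI in WT, and Lyve1 had 2 in the main cells. Folr2, under 10 CPM, went the other way, with 32 UMIs in WT cells and 4 in the main cells (log2 -3.03, -4.99 to -1.54). The part of a different mix of macrophages in the Ms4a differences was not tested. Median mitochondrial shares were 2.09% in WT cells and 3.70% in the main cells.

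The cluster spans 678.56 kb of chromosome 19, from 10962293 to 11640851 (GRCm38, GENCODE M21), and holds 22 protein-coding genes. Ms4a7 lies on the minus strand at 11321039 to 11336146, and Ms4a6d on the same strand at 11586604 to 11604849. The other 4 members lie between them on the plus strand: Ms4a4a at 11375523 to 11392790, Ms4a4c at 11404770 to 11427246, Ms4a6c at 11469366 to 11482192, and Ms4a6b at 11516512 to 11531256. Ms4a6c and Ms4a6b are close relatives, and their promoters are printed to show how much sequence the 2 genes share. The sequences are the 250 bases before the start site in RefSeq (GRCm38.p6), 5′ to 3′ along the gene, with runs of at least 12 bases found in both promoters in capitals. Ms4a6c is chr19:11469118-11469367 and Ms4a6b chr19:11518309-11518558, both on the plus strand; the RefSeq start of Ms4a6b lies inside the GENCODE gene.
Ms4a6c: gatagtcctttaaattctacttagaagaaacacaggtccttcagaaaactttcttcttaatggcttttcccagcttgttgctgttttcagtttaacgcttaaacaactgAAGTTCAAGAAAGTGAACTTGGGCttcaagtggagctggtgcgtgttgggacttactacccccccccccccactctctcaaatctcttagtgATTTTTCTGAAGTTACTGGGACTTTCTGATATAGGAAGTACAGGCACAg
Ms4a6b: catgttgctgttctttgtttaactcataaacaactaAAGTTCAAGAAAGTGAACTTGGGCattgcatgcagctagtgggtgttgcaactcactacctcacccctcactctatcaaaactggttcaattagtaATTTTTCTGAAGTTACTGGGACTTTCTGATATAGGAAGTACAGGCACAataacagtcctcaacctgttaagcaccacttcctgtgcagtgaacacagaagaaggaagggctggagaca
The shared runs are 24 and 48 bases long, and another run of 14 bases lies after the start site in Ms4a6c. Over the RefSeq windows of 300 bases, which add 50 bases after the start, the pair was identical at 85.9% of 220 aligned bases, while the other member pairs gave 56.2% to 65.7%. Promoters were matched for 5 of the 6 members; Ms4a6d had no entry. The open reading frames follow the same grouping: Ms4a6b was identical to Ms4a6c at 85.3% and to Ms4a6d at 81.3% of aligned bases, and Ms4a7 to the other members at 59.6% to 61.7%.

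The first shared run holds the letters GAAAGTGAA, a match to GAAANNGAA, a short form of the sequence that IRF factors bind, which begins at position -133 from the start of Ms4a6c and -206 from that of Ms4a6b. Of the 27025 genes with a promoter of this length, 8.57% hold a match on either strand. Ms4a7 has a match as well, TTCGTTTTC, on the opposite strand and beginning at position -71; it is in capitals in the 250 bases before the start (chr19:11336147-11336396, minus strand), printed because Ms4a7 has the largest difference of the 6.
Ms4a7: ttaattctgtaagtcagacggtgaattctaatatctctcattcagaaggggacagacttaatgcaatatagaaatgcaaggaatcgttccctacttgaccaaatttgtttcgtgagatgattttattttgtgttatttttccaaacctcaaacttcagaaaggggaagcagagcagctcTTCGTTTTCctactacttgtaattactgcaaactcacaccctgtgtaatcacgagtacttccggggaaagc
The paired IRF motif, which adds an A to the end of the short form and so contains it, is in 3.49% of promoters, and the ETS-IRF composite motif in 2.79%, on either strand; neither was found in a member's window. The letters GAGGAA, the core bound by the macrophage factor PU.1, are in 28.3% of promoters. Among the members they are in the windows of Ms4a7, beginning at position 43, and of Ms4a4c, at -61. A second RefSeq start of Ms4a7 has another match to the short IRF form, GAAAAGGAA, beginning at position -148. Such matches describe letters and are not binding sites.

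Ms4a7 was detected in the library labelled IRF8KO and had no UMI in WT cells. The main cells held 12311 Ms4a7 UMIs (649 CPM, 637 to 660.2) in 2924 of 5007 cells, and the neutrophil-gene cells held 63 UMIs (74.7 CPM) in 5 of 98 cells. None of the 3304 WT cells had a UMI, which allows a share of up to 0.0908%. At the floor of 3 UMIs over the WT population, the level in the main cells was at least 4009-fold higher. By log2 ratio, with such bounds, Ms4a7 ranked 2 of the 8859 genes with at least 10 CPM in either population. No UMI in WT and at least 10 CPM in the main cells was a property of 20 of these genes (0.226%).

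Ms4a6c, a macrophage member of the family, was present in WT cells and higher in the main cells. It had 1058 UMIs (57.1 CPM, 53.7 to 60.6) in WT cells, 11674 (615 CPM, 604 to 626) in the main cells and 95 (113 CPM, 91.2 to 138) in the neutrophil-gene cells. The main cells stood 10.8-fold above WT, a log2 ratio of 3.43 (3.34 to 3.52), and the 2 intervals do not overlap. Of the 95 UMIs in neutrophil-gene cells, 34 were in 1 cell, and in the neutrophil-like cluster of 96 cells the Ms4a6c level was 43.2 CPM (29.8 to 60.7), which overlaps WT. Its neighbour in sequence, Ms4a6b, had 2854 UMIs (154 CPM, 148 to 159.7) in WT cells, 10638 (560.5 CPM, 549.9 to 571) in the main cells and 53 (62.9 CPM, 47.1 to 82.2) in the neutrophil-gene cells. The ratio of main to WT cells was 3.64-fold for Ms4a6b, log2 1.86 (1.80 to 1.92), so the closest pair in sequence differed in fold. Ms4a6d, known as a partner of immune receptors in mouse macrophages, differed least of the abundant members. Its 3253 UMIs in WT cells made 175 CPM (169 to 182), its 4800 in the main cells 253 CPM (246 to 260.2), and its 22 in the neutrophil-gene cells 26.1 CPM (16.4 to 39.5). The ratio of main to WT cells was 1.44-fold, log2 0.53 (0.46 to 0.59), which stays under 2-fold.

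The remaining pair of members was rare. Ms4a4a, the mouse relative of the human macrophage gene MS4A4A, had no UMI in WT cells and 35 in the main cells (1.84 CPM), 1 each in 35 cells. That level is at least 11.4-fold above the WT floor but under the 10 CPM required for a call. Ms4a4c had 23 UMIs in WT cells (1.24 CPM, 0.786 to 1.86) and 97 in the main cells (5.11 CPM, 4.14 to 6.23), log2 2.04 (1.38 to 2.77), also under 10 CPM. Ms4a4c was detected in 50 main cells, and 1 of them held 13 of its UMIs.

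Of the 4 members that reached 10 CPM, 3 stood higher by 2-fold or more in the main cells and none lower. Over all genes tested, 497 were higher by 2-fold (5.61%) and 822 lower (9.28%), and the median log2 ratio was -0.28; TMM scaling, which centres the median at -0.02, gave 676 higher and 535 lower. Leaving out mitochondrial and ribosomal protein genes from the totals gave 621 higher and 648 lower. Because the contrast chose the members, nothing is read from the count of 3.

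**Figure D1:**
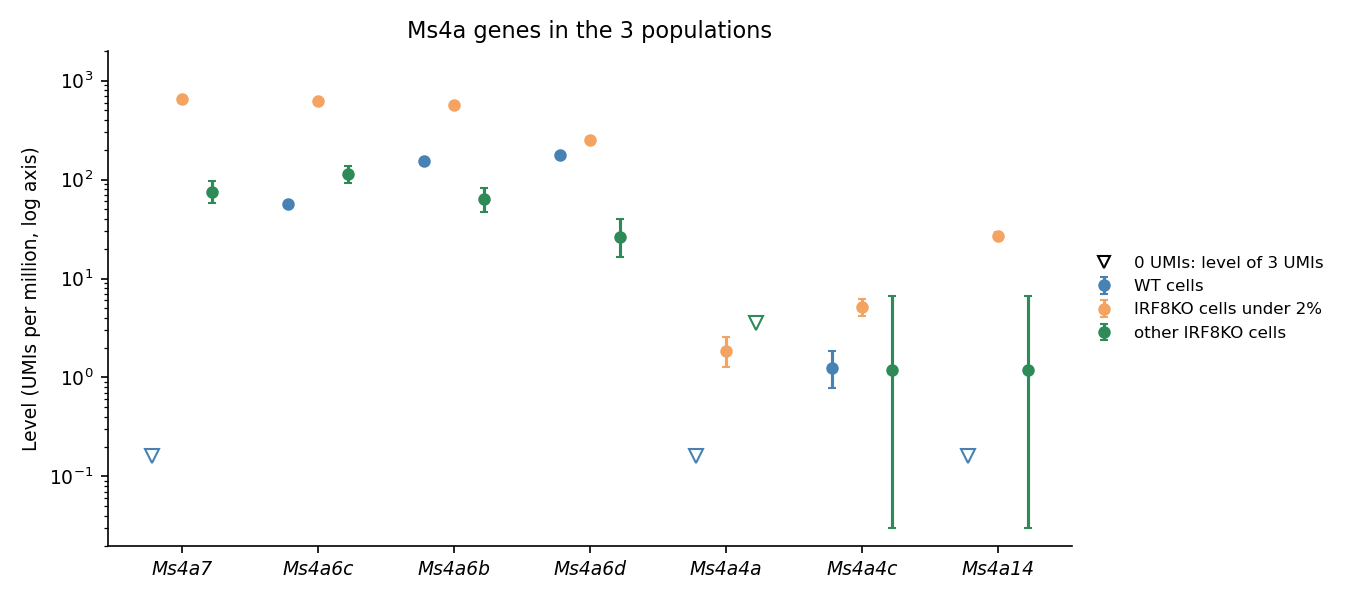
Level of the 6 members and Ms4a14 (CPM, log axis) in WT cells, main cells (IRF8KO cells under 2%) and neutrophil-gene cells (other IRF8KO cells). Points are population sums with exact 95% Poisson intervals, and open triangles mark a count of 0 at the level of 3 UMIs. Ms4a7 lies at 649 in the main cells and at 0 UMIs in WT, while Ms4a6d differs little between these populations.

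The rest of the cluster was then examined in chromosomal order. Among the 13 Ms4a genes that are not members, 9 had under 10 UMIs over all kept cells and 6 of these had none. Only Ms4a14 reached 10 CPM in WT or main cells: it lies 6584 bases from Ms4a7 on the same strand and had no UMI in WT cells and 514 (27.1 CPM, 24.8 to 29.5) in the main cells, at least 167-fold higher. Ms4a4b had 2 UMIs in WT cells and 57 in the main cells, and Ms4a4d had 0 and 10. Gm8369, a protein-coding gene between Ms4a6c and Ms4a6b whose reading frame is identical to that of Ms4a4c at 88.4% of aligned bases, went from 30 UMIs to 482, log2 3.97 (3.44 to 4.56). AW112010, a long noncoding transcript within the cluster, stood at 23.8 CPM in WT cells and 48.9 CPM in the main cells, log2 1.04 (0.87 to 1.20). It was named after its value was seen.

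Outside the cluster, the genes with at least 10 CPM stood close to WT. Of the 10 protein-coding genes on the side of Ms4a10, 4 reached 10 CPM and 0 passed 2-fold in either direction, with a median log2 ratio of -0.13. On the side of Ms4a3, 1 of 10 reached 10 CPM, Mrpl16, at -0.23. Under 10 CPM, Stx3 on that side had 54 UMIs in WT cells and 132 in the main cells, log2 1.26 (0.79 to 1.74). Tmem132a, on the Ms4a10 side, had 87 and 51, log2 -0.80 (-1.33 to -0.29). Both were named after their values were seen. Apart from AW112010, the genes past 2-fold with at least 10 CPM lay between Ms4a14 and Ms4a6b, a stretch that takes in every member but Ms4a6d. The differences were not of 1 size within it: on either side of the rare Ms4a4a, Ms4a4c and Ms4a4b stood a bound of 11.97 for Ms4a7 and 3.43 for Ms4a6c. The genes on the Ms4a10 side of Ms4a14, from Ms4a10 to Ms4a5, were at or near 0 UMIs in both libraries, so no ratio can be given for them.

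**Figure D2:**
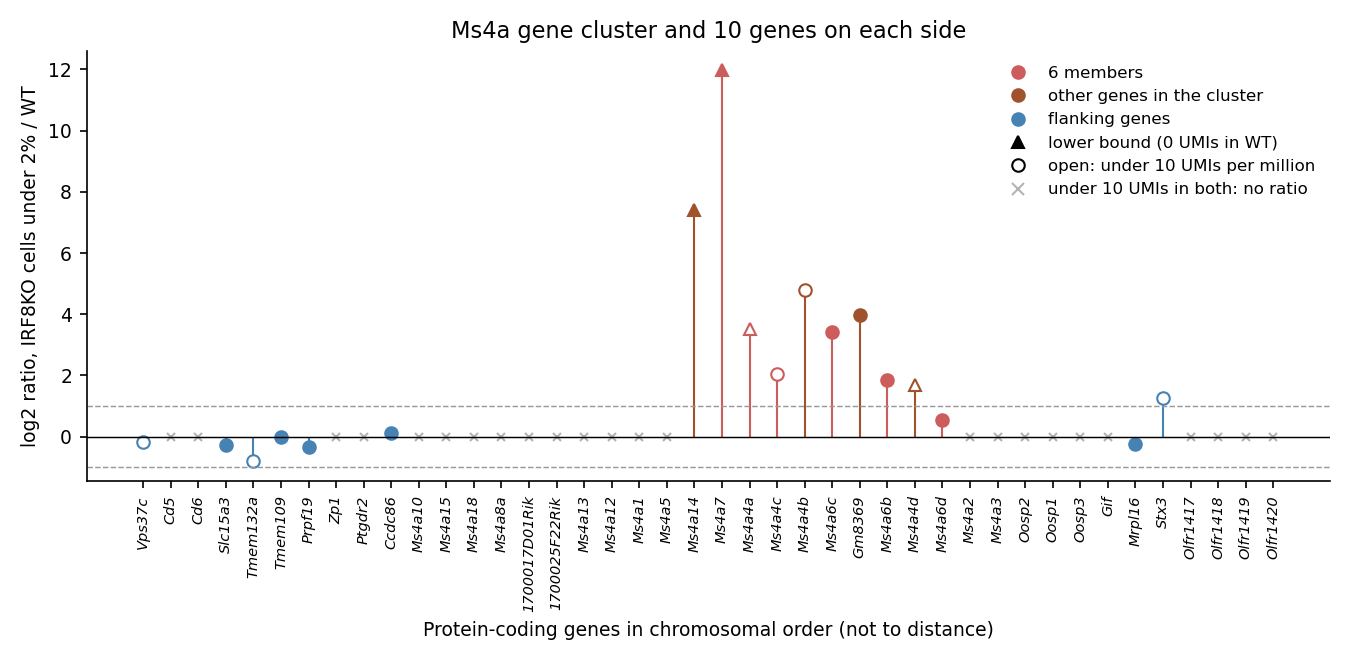
Log2 ratio of main cells (IRF8KO cells under 2%) over WT cells for the protein-coding genes of the cluster and 10 on each side, in chromosomal order and not to distance. Filled symbols have at least 10 CPM in either population, triangles are lower bounds against 0 UMIs in WT, grey crosses have under 10 UMIs in each population, and dashed lines mark 2-fold. Filled symbols past 2-fold run from Ms4a14 to Ms4a6b, Ms4a6d lies at 0.53, and filled flanking genes lie between -0.35 and 0.12. Among the open flanking symbols, Stx3 lies at 1.26.

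Reads of related genes could be exchanged where transcripts match. In the last 1000 bases of the longest coding transcripts, the part that tag counting reads, none of the 50-base windows of Ms4a7, Ms4a6b, Ms4a6d or Ms4a4a occurs in another gene. In Ms4a6c 18.5% of windows do, 82 of 951 of them in Ms4a6b, and in Ms4a4c 5.57% do, all in Ms4a4b. The stretches shared with Ms4a6c lie in other parts of Ms4a6b transcripts, so the result for Ms4a6b does not cover them. How such reads were assigned, and whether counting used strand, is not given in the sources used here. BE692007, a noncoding gene that overlaps Ms4a6c on the opposite strand, was not analysed here.

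The list of receptors, proteases and factors that work with or resemble the family stayed within 2-fold. It holds Trem2 and its adaptors, the proteases that shed it, myeloid transcription factors and the related tetraspanning Tmem176 pair. All 14 of the genes in the table reached 10 CPM, 0 were higher and 0 lower by 2-fold, and their median log2 ratio was -0.12. Trem2 stood at 1826 CPM in WT cells and 1679 CPM in the main cells (log2 -0.12). The extremes were Tmem176a at 0.90 and Adam17, a sheddase, at -0.99, and other scalings carry each of them past 2-fold; the genes named here were picked after their values were seen.

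Detection per cell showed the same order of differences. A Ms4a7 UMI was present in 58.4% of main cells (57.0 to 59.8), and in 5.10% of the neutrophil-gene cells (1.68 to 11.5), which are deeper. Ms4a6c was detected in 21.7% of WT cells, 77.0% of main cells and 11.2% of neutrophil-gene cells. For Ms4a6b the shares were 44.3%, 76.9% and 8.16%, and for Ms4a6d 50.8%, 53.4% and 8.16%. Cells thinned to 2000 UMIs each (3019 WT, 4509 main and 97 neutrophil-gene cells) gave 0%, 51.3% and 3.09% for Ms4a7 and 10.2%, 65.0% and 4.12% for Ms4a6c. Thinned shares were 25.8%, 63.4% and 5.15% for Ms4a6b and 30.3%, 38.0% and 2.06% for Ms4a6d. At this depth 45.8% of WT cells had none of these 4 members, against 5.52% of main cells, and all 4 were found together in 10.1% of main cells. These shares depend on the depth drawn: at 1000 UMIs a cell, Ms4a7 was found in 34.1%, Ms4a6b in 41.5%, Ms4a6c in 43.2% and Ms4a6d in 22.5% of main cells.

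Within the main cells the Ms4a7 level was higher in deeper cells, and those of the Ms4a6 genes were not. From the lowest to the highest quartile of UMIs per cell, the Ms4a7 level was 409, 572, 671 and 734 CPM. Across the same quartiles Ms4a6c stood at 646, 608, 597 and 617 CPM and Ms4a6d at 264, 249.9, 260.5 and 247 CPM. The highest Ms4a6b level, 615 CPM, was in the lowest quartile, followed by 581, 536 and 549 CPM. Of the thinned main cells 48.7% had no Ms4a7 UMI and 17.2% had 3 or more. Ms4a14 followed Ms4a7: it was found in 7.22% of thinned cells with a Ms4a7 UMI (6.20 to 8.35) and 1.37% of those without (0.924 to 1.94), and its level was 12.2 CPM at 0 Ms4a7 UMIs and 63.6 CPM at 3 or more. Differences for the Ms4a6 genes were smaller. Ms4a6c was found in 66.0% of cells with a Ms4a7 UMI (64.0 to 67.9) and 64.0% of those without (61.9 to 66.0), and Ms4a6b in 64.5% (62.6 to 66.5) and 62.2% (60.1 to 64.2), with intervals that overlap. For Ms4a6d the shares were 40.9% (38.9 to 43.0) and 35.0% (33.0 to 37.0), which do not overlap, and its level was 236 CPM at 0 Ms4a7 UMIs and 271 CPM at 3 or more. Ms4a6b was found more often with Ms4a6c, in 67.5% of cells with a Ms4a6c UMI and 55.8% of those without. The 11 microglia markers summed to 14292 CPM in cells with 3 or more Ms4a7 UMIs and 16900 CPM in cells with none; among them P2ry12 was lower, at 475 against 723 CPM, and Tmem119 stood at 869 against 838 CPM. The border macrophage markers Clec12a and Mrc1 were lower in cells with 3 or more, at 158 against 229.8 CPM and 429.7 against 538 CPM. Pf4, of the same list, was higher, at 1643 against 1305 CPM. The 11 border macrophage markers summed to 3413 against 3176 CPM. These cells come from 1 library, so the shares describe that pool.

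**Figure D3:**
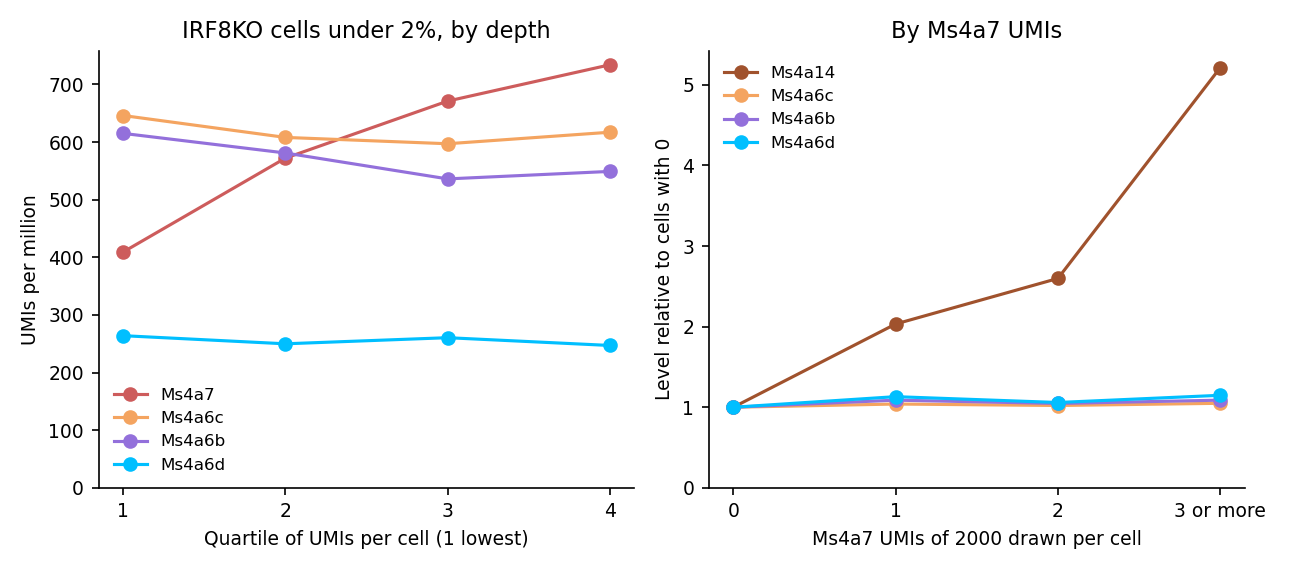
Left, level (CPM) of 4 members in quartiles of UMIs per cell among the main cells; right, level of Ms4a14 and the Ms4a6 genes by the number of Ms4a7 UMIs among 2000 drawn from each main cell, relative to cells with 0. Ms4a7 rises from 409 to 734 with depth while the others do not, and of the genes at right Ms4a14 rises most with Ms4a7, from 12.2 to 63.6 CPM, while Ms4a6c goes from 601 to 630.5.

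Cells of both libraries were clustered together without any Ms4a gene among the variable genes, and levels were summed by cluster and library. Apart from the neutrophil-like one, no cluster met the rule for a name, so they are given by leading genes. The main cells fell mostly into 4 clusters. Ms4a7 was lowest, at 310.2 CPM (296 to 325), in the 2102 cells led by Crybb1, Cck and Adgrg1, which also kept the most P2ry12 of the 4, at 897 CPM. It was highest, at 868 CPM (847 to 889.7), in the 2101 cells led by Fxyd5, Cd72 and Thbs1, and lay between in the 401 cells led by the interferon-response genes Cxcl10, Ifit3 and Rsad2 (680.3 CPM) and the 392 deep cells led by the MHC class II genes H2-Eb1 and Cd74 (711 CPM). The highest level was 2.80-fold the lowest (2.66 to 2.95).

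The other abundant members varied less over these clusters. Ms4a6c ranged from 595 to 707 CPM, 1.19-fold, Ms4a6b from 529.5 to 682 CPM, 1.29-fold, and Ms4a6d from 235 to 305 CPM, 1.30-fold, each highest in the interferon-response cluster. At Leiden resolution 1.0 the range was 3.04-fold for Ms4a6b (2.22 to 4.28) and 1.67-fold for Ms4a6c, with both lowest in 50 cells led by Ccl4, and 3.73-fold for Ms4a7. At resolution 0.5 Ms4a14 was lowest where Ms4a7 was lowest, at 11.1 CPM, and reached 38.8 CPM in the 392 cells led by H2-Eb1. At resolution 1.0 the group led by H2-Eb1 held only 45 cells, with 15 Ms4a14 UMIs (23.2 CPM). The 660 cells led by Ankrd26 stood at 40.2 CPM there, and the intervals of these groups overlap. The higher level is thus not tied to MHC class II cells. In the clustering described first, Ms4a4c was concentrated in the interferon-response cluster, where 67 of its UMIs were found (39.3 CPM, 30.4 to 49.9). The cluster led by Crybb1 stood at 0.694 CPM, a 56.6-fold difference (21.1 to 214). In 4 WT clusters Ms4a7 had no UMI in any. Ms4a6c in WT cells ran from 42.1 CPM in 67 cells led by Ccl4 and Ccl3 to 84.1 CPM in 70 shallow cells, with intervals that overlap.

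**Figure D4:**
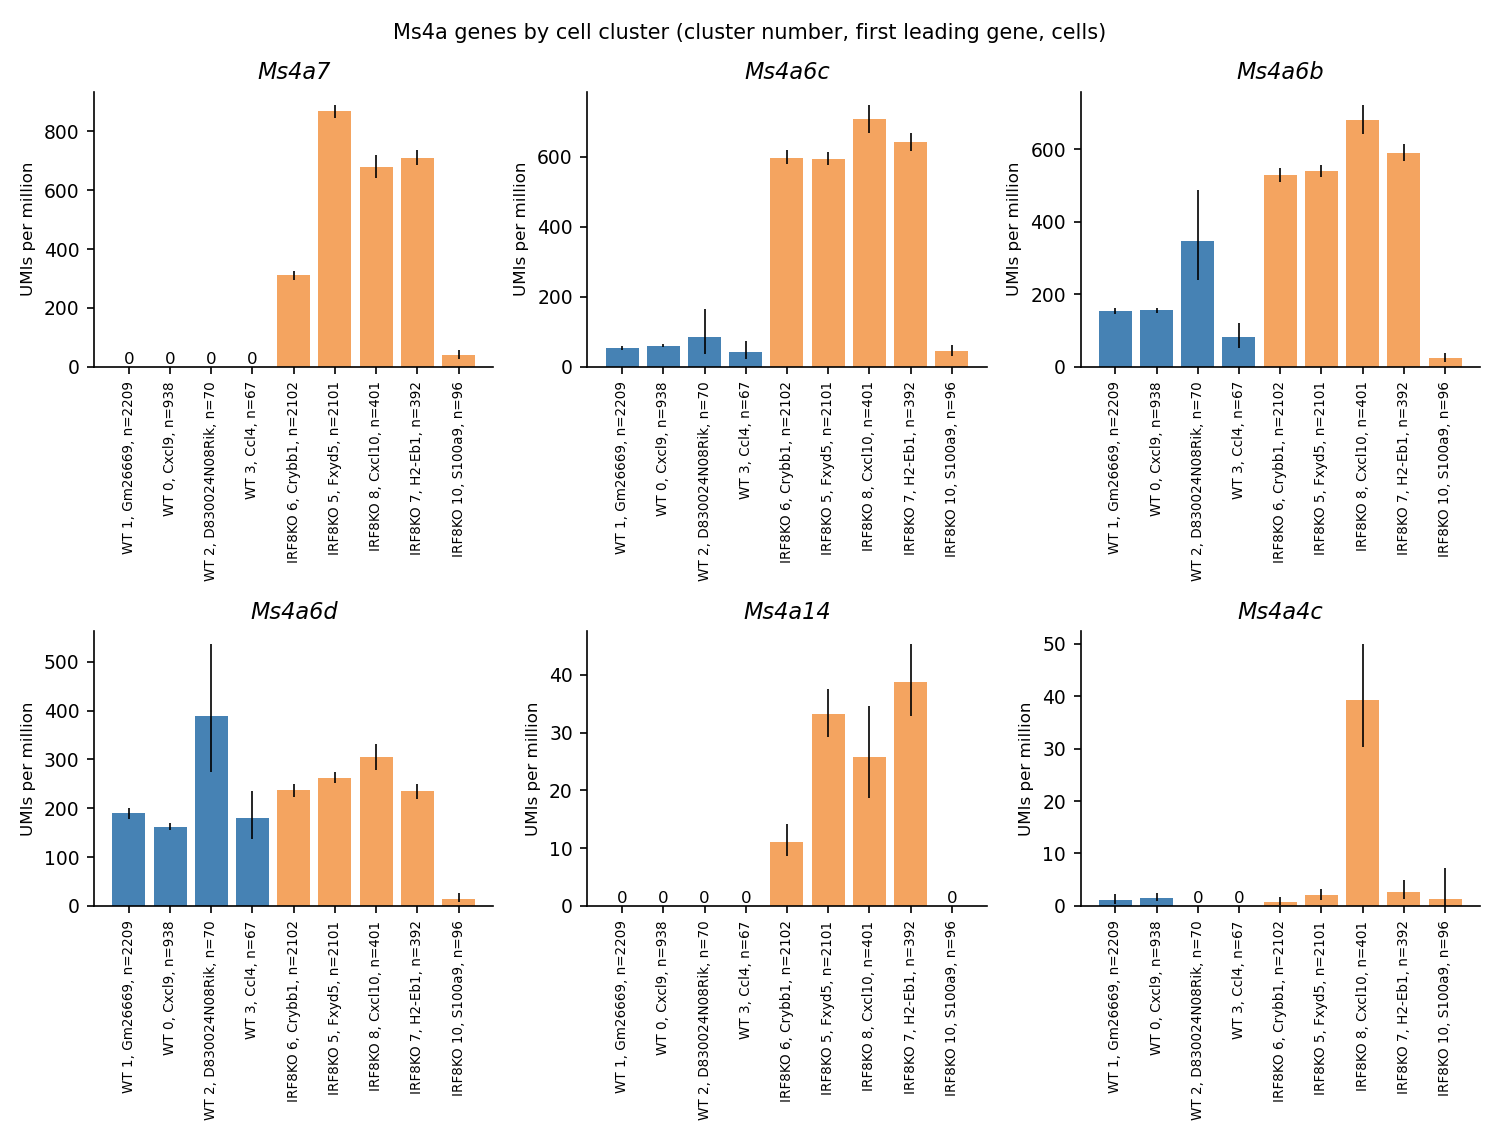
Level (CPM) of 6 Ms4a genes in 4 WT clusters (blue) and 5 clusters of the library labelled IRF8KO (orange), with cluster number, first leading gene and number of cells; bars carry exact 95% Poisson intervals, and a 0 marks no UMI. Ms4a7 differs 2.80-fold among the orange clusters other than the neutrophil-like, the Ms4a6 genes by 1.19 to 1.30-fold, and Ms4a4c is high in the cluster led by Cxcl10.

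A finer clustering separated 2 small groups that bear on the question of which cells. The first holds 29 cells of the library labelled IRF8KO led by Csmd3 and Sall1, with Sall1 at 252 CPM and P2ry12 at 2432 CPM. In these cells Ms4a7 had 1 UMI (9.69 CPM, 0.245 to 54.0), Ms4a6c 9 (87.2 CPM, 39.9 to 166), Ms4a6b 11 (107 CPM, 53.2 to 191) and Ms4a6d 15 (145 CPM, 81.4 to 239.8). All these intervals lie under the levels of the main cells, and those of the Ms4a6 genes include the WT levels. Border macrophage markers summed to 1134 CPM there, and Apoe to 10224 CPM against 85653 to 90744 CPM in the 4 clusters above. Ms4a7 was found in 3 of the 12 main cells with 2 or more Sall1 UMIs (25.0%). It was found in 3 of the 19 with 1 (15.8%), against 58.6% of the 4976 with none. Ms4a6c was found in 25.0%, 26.3% and 77.4% of these groups. Their summed Ms4a7 levels were 28 UMIs (329 CPM, 219 to 476), 27 (358 CPM, 236 to 521) and 651 CPM (639.7 to 663). A Sall1 UMI alone thus did not mean that Ms4a7 was absent. The second was the only cluster with at least 50 cells of each library, led by the chemokine Ccl4 and the early response gene Egr1: Ms4a7 had no UMI in its 75 WT cells and 103 (575 CPM, 469 to 697) in its 50 cells of the other library. Within it Ms4a6c stood at 40.8 and 419 CPM in WT cells and cells of the other library, Ms4a6b at 84.5 and 223 CPM, and Ms4a6d at 184 and 257 CPM. The order of the ratios was that of the whole populations.

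The neutrophil-gene cells, chosen by neutrophil transcripts, had less of the 4 abundant members than the main cells. Log2 ratios to the main cells were -3.12 for Ms4a7 (-3.50 to -2.76), -3.16 for Ms4a6b, -2.45 for Ms4a6c and -3.28 for Ms4a6d, so 4 of 4 were lower by 2-fold or more. Nothing is read from that count, because the members were chosen from results of these data. The neutrophil list made up 390127 CPM of the neutrophil-gene cells, which lowers the CPM of other genes there. Lower by 2-fold were 44.9% of the 8798 genes tested in this comparison, whose median log2 ratio was -0.85; with TMM scaling it was -0.08, with 2053 lower and 1772 higher in place of 3950 and 1002. A few cells held most of the Ms4a UMIs that remained. The 4 cells with the most held 203 of 234 (86.8%), and 84 of the 98 had none. The highest of them is also the cell nearest the threshold: it had 2.36% neutrophil-gene UMIs, 47753 UMIs in all and 27 of Ms4a7. Its neighbour just under the limit, at 0.232%, had 2152 UMIs and no Ms4a7. With a threshold of 5%, which moves that cell to the main cells, the ratios were -3.84 for Ms4a7 and -3.00 for Ms4a6c. Whether such deep cells are 2 cells in 1 droplet was not tested.

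A different member of the cluster marked these cells. Ms4a3, known from granulocyte and monocyte progenitors, had 126 UMIs (149 CPM, 125 to 178) in 52 of the 98 neutrophil-gene cells (53.1%), 1 UMI in the main cells and none in WT. Its level was 2837-fold that of the main cells, with a log2 interval of 8.97 to 16.79 that reflects the single UMI. Ms4a14 had 1 UMI in these cells. The monocyte list summed to 889.7 CPM in them, led by Ly6c2 and Plac8, and to 22.1 CPM in the main cells, where Ly6c2, Plac8 and F10 had no UMI. Of the neutrophil list, S100a8 and S100a9 reached 17.1 and 21.2 CPM in the main cells.

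Likeness of pattern was described over the 9 clusters of at least 50 cells, as Pearson's r of log2(CPM + 10) over the 4456 genes that reach 50 CPM in any population. Closest to Ms4a7 were Pf4 (0.995), a chemokine, Apoc4 (0.993), an apolipoprotein, Mrgpra2a (0.989), Cxcl14 (0.988) and Clec4n (0.987), a C-type lectin receptor. Closest to Ms4a6c were Gm26714 (0.991), Htra3 (0.990), a secreted protease, Dab2 (0.986), an endocytic adaptor, Tgfbi (0.984), a matrix protein, and Mid1 (0.983). The clusters of a library share its preparation and depth, so these values mostly follow the contrast between libraries. Pf4 and Apoc4 for Ms4a7, and Htra3 and Mid1 for Ms4a6c, were among the nearest 5 under all 3 clusterings of both libraries. Nearness was also taken over 6 clusters of the library labelled IRF8KO alone, at resolution 1.0 and without the neutrophil-like one. The nearest to Ms4a7 were Lsp1, Cd44, Cd48, Cpd and Cd300lf (0.955 to 0.977). Those to Ms4a6c were Ddx46, Peli1, Snrpa, Ms4a6b and Atxn7l1 (0.984 to 0.991). Ms4a6b (0.987) is a member, and none of the genes nearest over both libraries was among them.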

How the data were processed

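The values deposited for the 2 libraries are whole-number counts of UMIs, 1 for each gene in each barcode. Per the submitters' processing notes, bcl2fastq, Cell Ranger 3.1 and Scanpy were used with mm10; per the file headers, the counts came from software version 3.1.0. The protocols also name a full-length kit, although the values have the form of droplet counts. For annotation, strand setting and cell calling, nothing is given in the sources used here.

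Cells were filtered and grouped as stated above, keeping 3304 of 3504 WT and 5105 of 5303 IRF8KO barcodes. Deposited counts were summed over each population and scaled to CPM. A gene was called where its CPM differed by 2-fold or more and reached 10 in either population; the floor for 0 was 3 UMIs per population. Intervals were exact Poisson (levels), conditional binomial (ratios) and Clopper-Pearson (shares), with scipy 1.17.1; where no cell had a UMI, 3 cells of the total were taken as the upper limit instead. With 1 library per group no test was run and no p-value exists.

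Clustering used scanpy 1.11.5 (2000 variable genes without Ms4a genes, 30 components, 15 neighbours, Leiden resolution 0.5). Its scrublet caller marked 1 WT and 5 IRF8KO cells, too few to have worked, so no cell was removed; an alternative left out the 87 and 208 highest scores. The computation was tested on simulated counts. TMM factors came from edgeR 4.0.16. Sequence identity was computed with Biopython 1.88 by pairwise alignment, with reading frames taken as the longest in each gene's GENCODE coding transcripts.

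Genes named were the 6 members, family genes with at least 10 UMIs, flanking and list genes past 2-fold, and the 5 nearest in pattern to Ms4a7 and Ms4a6c; others are said to be chosen after their values were seen, or are markers. The members, lists and rules were chosen with earlier results of these data known. Clec7a, of the list of relatives, was not matched.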

Additional observations from a re-analysis of the deposited data

Results flagged for a closer look

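Barcodes left out by the cell filter were in no comparison above, and they too held Ms4a transcripts in the library labelled IRF8KO. Its 198 barcodes held 133 UMIs of Ms4a7 (761 CPM), where the 200 left-out WT barcodes held none. Ms4a6b had 129 UMIs in the former and 29 in the latter, and Ms4a6c had 91 and 6. The left-out barcodes summed to 174864 and 163086 UMIs, so these counts are small, and whether they come from cells or from free RNA was not tested.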

How the results depend on the processing

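Of 293 alternative values, 221 stayed within the counting interval of the main value or the same count, 72 moved outside it and 0 changed direction; all but 4 of the 31 moves among shares of cells came from thinning. Some of the 221 could not move. No IRF8KO cell lay between 0.232% and 2.36% neutrophil-gene UMIs, so the threshold of 1% changed no population. No threshold alternative changes the WT cells, so their shares were fixed there. The counts of 3 of 6 members and 1 other family gene past 2-fold, and of 0 flanking genes, held under every alternative. For main over WT cells, TMM scaling gave log2 ratios of 12.22 for Ms4a7, 2.12 for Ms4a6b, 3.68 for Ms4a6c and 0.78 for Ms4a6d. Totals that leave out mt-, Rpl and Rps genes gave 12.12, 2.01, 3.58 and 0.68, and totals without the 10 most abundant genes 12.04, 1.94 and 0.60 for Ms4a7, Ms4a6b and Ms4a6d. Equal weight per cell gave 11.84 for Ms4a7 and 0.43 for Ms4a6d. The bound for Ms4a7 was 11.91 with the stricter filter, 11.93 without the highest doublet scores and 9.34 with a pseudocount of 1 CPM, by construction. In the list of relatives 1 gene passed 2-fold under each of 3 alternatives, Tmem176a with TMM and with those totals, and Adam17 with equal weight.

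For neutrophil-gene over main cells, in the order Ms4a7, Ms4a6b, Ms4a6c and Ms4a6d, TMM gave -2.44, -2.48, -1.77 and -2.60, and equal weight -4.42, -4.71, -3.80 and -4.50. Without the 10 most abundant genes the first 3 were -2.55, -2.59 and -1.88. With a threshold of 5%, which moves 1 cell to the main cells, they were -3.84, -3.59 and -3.00. Taking only the neutrophil-like cluster, chosen after seeing the data, gave -4.04, -4.57, -3.83 and -4.13. At Leiden resolution 1.0 the highest over lowest cluster was 3.73 for Ms4a7, 3.04 for Ms4a6b and 1.67 for Ms4a6c; for the last 2 the lowest was the cluster of 50 cells led by Ccl4. No paired analysis was possible because each group is 1 library. Depth limits Ms4a4a and Ms4a4c, and the small clusters.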

Other observations

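Genes of the cluster that mark other blood cells were near 0. Ms4a2, the beta chain of the mast cell IgE receptor, had no UMI in WT or main cells and 3 in the neutrophil-gene cells, where Kit, of the list of mast cell markers, had 13 and the other 3 markers none. Ms4a1, the B cell antigen CD20, had 1 UMI in WT cells, 2 in the main cells and none in the neutrophil-gene cells. The 6 lymphocyte markers had no UMI in WT cells and 1 in the main cells, and summed to 23.7 CPM in the neutrophil-gene cells, from Cd3d and Nkg7. The 4 dendritic cell markers summed to 4.26 CPM in WT, 10.4 in main and 8.30 in neutrophil-gene cells. The 4 red blood cell markers summed to 2.32 CPM in WT cells and had no UMI in the library labelled IRF8KO.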
